A study of Homo sapiens with 6 samples.

Results

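Eph receptors are receptor tyrosine kinases, and their ligands, the ephrins, are held on the surface of neighbouring cells. The 10 genes described here were EPHA2, EPHA3, EPHA4, EPHA5, EPHA7, EPHB2, EPHB3 and EPHB4 of the receptors and EFNB1 and EFNB2 of the ligands. The members were every probe set that the platform annotation assigned to 1 of these symbols, which gave 23 of the 54675 probe sets for 9 of the 10 genes. No probe set carried the symbol EPHB2 alone in the annotation used here, so EPHB2 was not analysed here. EPHA4 was chosen by its measured log2 difference between the CDK11 siRNA array and the nonspecific siRNA array of KHOS, and that difference is given as a description with no test. The other genes were taken as its family.

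The arrays held RNA of KHOS and U-2OS, human osteosarcoma cell lines. Each line was left untransfected, transfected with nonspecific siRNA at 40 nM or transfected with CDK11 siRNA at 40 nM, and the RNA after CDK11 siRNA was collected at 48 h. CDK11 is a cyclin-dependent kinase with roles in transcription, splicing and the cell cycle, and the question was which genes respond when it is lowered. RNA of 3 flasks was pooled for each array, and each of the 6 groups had 1 array, so that a difference within a line has no replicate check. Each line is 1 established culture, and CDK11 was lowered with 1 siRNA sequence. In a culture measured in bulk, fewer cells of a type and less RNA per cell cannot be told apart. CDK11A and CDK11B share 5 probe sets, of which the brightest was left at 20.6% of its nonspecific siRNA signal in KHOS and at 16.0% in U-2OS. The others were left at 20.0% to 40.1% in KHOS. In U-2OS they were left at 14.8%, 22.4%, 74.9% and 86.6%. Of the 8 osteoblast lineage markers with a probe set, COL1A1 and SPARC were above the signal limit of 100 on all 6 arrays. RUNX2 was above it on the KHOS arrays, at 9.51 to 10.24, and on the untransfected U-2OS array alone, at 7.03, with 4.39 and 5.68 after the siRNAs. SP7, ALPL, SPP1, IBSP and COL1A2 were below it in both lines. The measured markers of blood, endothelial and neural cells were below the limit, and among 6 epithelial markers EPCAM alone was above it, in KHOS.

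Binding of an ephrin to an Eph receptor needs contact between cells, and signals then run into both of them. EphA receptors mainly bind ephrin-A ligands, which are tethered by a lipid anchor, and EphB receptors mainly bind ephrin-B ligands, which cross the membrane. EphA4 is known as an exception that binds ligands of both classes. The pathway guides axons and blood vessels, and in bone ephrin-B2 and EphB4 are known for signals between osteoclasts and osteoblasts.

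Values are log2 signals as the authors deposited them. The study's filter asked for a signal above 100 (log2 6.64) on some array, and this value is called the signal limit here. The median log2 signal of all probe sets lay between 2.92 and 2.98 on the 6 arrays, which is near background. Of the 9 measured genes, 3 had a probe set above the limit on any array. These were EPHA2 with its single probe set, EPHA4 with 2 of 5 and EFNB2 with 1 of 2. The other 6 genes stayed below it. EPHA4 and EFNB2 passed the limit on KHOS arrays alone, so that a count over the genes that passed says nothing about the lines.

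**Figure D1:**
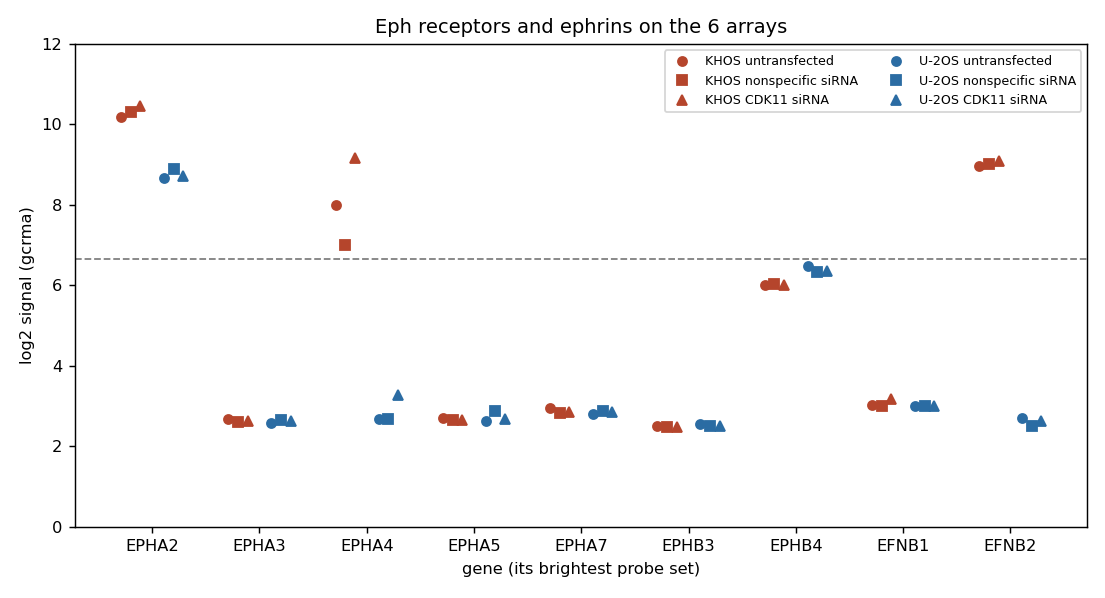
Log2 signal of the brightest probe set of each of the 9 measured genes, with 1 point per array, KHOS in red and U-2OS in blue, and the signal limit of 6.64 as a dashed line. EPHA4 in KHOS runs from 6.999 with nonspecific siRNA to 9.17 with CDK11 siRNA, while EFNB2 stays between 8.97 and 9.10 on the KHOS arrays and between 2.50 and 2.70 on those of U-2OS.

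EPHA4 and EFNB2, which were both bright in KHOS and near background in U-2OS, are shown by the sequence before their start sites, since these regions are where transcription of the pair begins. RefSeq, on build GRCh38.p14, gives EPHA4 a pair of start sites on the minus strand of chromosome 2, and the 250 bases before them lie at chr2:221574203-221574452 and chr2:221572305-221572554. The 250 bases before the EFNB2 start lie on the minus strand at chr13:106535663-106535912. Capitals mark GGGCGG or its complement CCGCCC, the core of a GC box.
EPHA4, upstream start: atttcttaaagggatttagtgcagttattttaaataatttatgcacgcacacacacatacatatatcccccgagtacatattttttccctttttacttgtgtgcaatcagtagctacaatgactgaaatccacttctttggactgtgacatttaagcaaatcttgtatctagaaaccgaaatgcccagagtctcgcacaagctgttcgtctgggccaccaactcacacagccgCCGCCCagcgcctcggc
EPHA4, downstream start: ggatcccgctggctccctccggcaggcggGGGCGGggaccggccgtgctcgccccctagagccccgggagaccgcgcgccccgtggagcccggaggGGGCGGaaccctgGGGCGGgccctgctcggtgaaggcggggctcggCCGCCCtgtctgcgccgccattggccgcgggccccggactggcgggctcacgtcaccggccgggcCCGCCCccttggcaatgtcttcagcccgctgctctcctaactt
EFNB2: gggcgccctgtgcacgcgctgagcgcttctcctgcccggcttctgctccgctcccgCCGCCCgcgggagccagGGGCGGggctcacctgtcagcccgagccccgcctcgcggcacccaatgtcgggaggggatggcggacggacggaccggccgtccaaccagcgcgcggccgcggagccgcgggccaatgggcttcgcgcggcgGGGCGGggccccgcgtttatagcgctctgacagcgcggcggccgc
The downstream EPHA4 window held 5 matches to GGGCGG on either strand and 30 CG dinucleotides, and the upstream window held 1 match and 9 CG. The EFNB2 window held 3 matches, 40 CG and 1 match to TATAAA on the opposite strand. Of 35116 windows of this length before RefSeq start sites, 42.6% held GGGCGG on either strand and 10.7% held TATAAA, and the median number of CG was 11. CACGTG and TGANTCA, found in 6.34% and 6.57% of all windows, were in none of the 3, and no matches to different motifs overlapped. The array does not tell which EPHA4 start was in use, and a match is only a description of the letters.

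EPHA4 was the member whose signal ranged most widely over the transfections of a line, which follows from how it was chosen. It was above the limit in KHOS only. By its brightest probe set, 227449_at, the log2 level in KHOS was 7.99 untransfected, 6.999 with nonspecific siRNA and 9.17 after CDK11 siRNA. The lowest of the 3 KHOS arrays was therefore the nonspecific siRNA control, and the untransfected cells lay between it and the CDK11 siRNA. CDK11 siRNA lay above nonspecific siRNA by 2.17 on the log2 scale, a 4.49-fold higher signal. Against untransfected cells it was 1.18, or 2.26-fold. Nonspecific siRNA by itself left 50.4% of the untransfected signal, a log2 difference of -0.99. The 3 comparisons share their arrays, so that the low nonspecific siRNA value enters the first and the last of them.

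The second EPHA4 probe set, 228948_at, was above the limit on the KHOS CDK11 siRNA array and on no other, at 6.94. It had 4.36 in untransfected KHOS cells and 3.33 with nonspecific siRNA. Its log2 difference of 3.62 between CDK11 and nonspecific siRNA starts from a level near background, so that its size is uncertain. Below the limit on all arrays, 206114_at had 4.92, 4.22 and 5.75 in KHOS, in the same sequence of groups. All 3 put the nonspecific siRNA array lowest and the CDK11 siRNA array highest. The probe set 229374_at had 2.43 and 2.40 on the control arrays and 3.96 with CDK11 siRNA. The last, 238671_at, ran from 1.98 to 2.01 over all 6 arrays and carried no signal that moved.

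**Figure D2:**
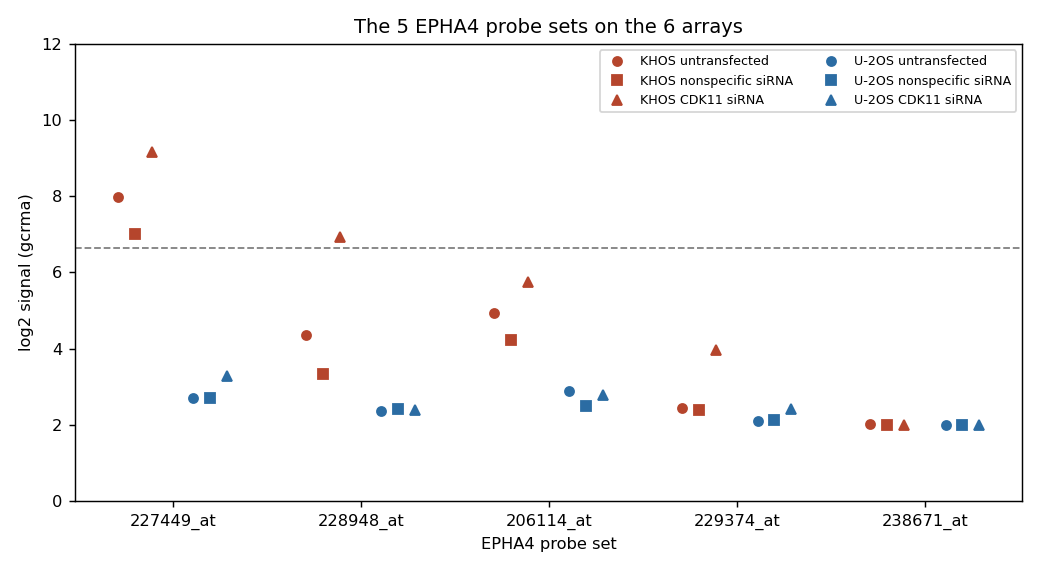
Log2 signal of the 5 EPHA4 probe sets on the 6 arrays, with 1 point per array, KHOS in red and U-2OS in blue, and the signal limit of 6.64 as a dashed line. In KHOS the CDK11 siRNA point is the highest for the first 4 probe sets from the left, and the fifth stays between 1.98 and 2.01.

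In U-2OS, whose arrays were not used to choose EPHA4, the brightest probe set had 2.69 untransfected, 2.69 with nonspecific siRNA and 3.28 after CDK11 siRNA. The CDK11 siRNA array was the highest of these as well, by a log2 difference of 0.59, but all 3 levels were near background. The difference stood at 1.55 SD of all kept probe sets and at place 357 from the highest of 8878 genes. The second probe set lay between 2.36 and 2.41 there. EPHA4 was thus near background in U-2OS in every transfection, and a change of its RNA could not be read reliably from these arrays.

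The study's rule calls a gene when the log2 difference of any kept probe set lies beyond 3 SD of all kept probe sets in that line. In KHOS, CDK11 siRNA against nonspecific siRNA, 1.95% of the 8878 genes were called, 0.856% higher and 1.09% lower. EPHA4 was called higher, 1 of the 3 members above the signal limit, at 4.82 SD by its brightest probe set and 8.05 SD by the second. That contrast chose EPHA4, so nothing is read from the count. Against untransfected cells 2.23% of genes were called in KHOS, 1.37% higher, and EPHA4 was called by the second probe set (4.79 SD) but not by the brightest (2.18 SD). Both values use the array that chose EPHA4, and the second probe set was kept through that array alone, so nothing is read from this call either. For nonspecific siRNA against untransfected in KHOS, 2.06% of genes were called and none of the members, with EPHA4 at -2.67 and -2.79 SD. In U-2OS none of the 3 members was called in the same 3 comparisons, where 2.89%, 2.52% and 2.51% of genes were. EPHA4 and EFNB2 were near background there, so that only EPHA2 could be read.

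EPHA2, a receptor that promotes invasion in several tumours, was above the signal limit on all 6 arrays. Its log2 level in KHOS was 10.19 untransfected, 10.31 with nonspecific siRNA and 10.47 after CDK11 siRNA, and in U-2OS 8.67, 8.89 and 8.72. The lowest KHOS array lay above the highest U-2OS array. Within a line the 3 transfections spanned no more than 0.28. Against nonspecific siRNA, CDK11 siRNA gave 0.16 in KHOS and -0.17 in U-2OS, beside an SD over all kept probe sets of 0.449 and 0.365.

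EFNB2, the ligand ephrin-B2, was well above the limit in KHOS and near background in U-2OS. By its brightest probe set the KHOS arrays had 8.97, 9.02 and 9.10 and the U-2OS arrays had 2.70, 2.50 and 2.63, given as untransfected, nonspecific siRNA and CDK11 siRNA. The groups do not overlap. The second EFNB2 probe set was below the limit, with 5.21, 6.08 and 5.41 for KHOS against 2.01, 2.03 and 2.02 for U-2OS. It put KHOS higher as well. Against nonspecific siRNA, CDK11 siRNA differed by 0.08 in KHOS and 0.13 in U-2OS on the log2 scale for the brightest probe set, while the dimmer probe set had -0.67 in KHOS.

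EPHB4, a receptor for ephrin-B2, stayed just below the limit in both lines. Its brighter probe set had 6.001, 6.02 and 6.004 for KHOS against 6.48, 6.32 and 6.35 for U-2OS, in the same sequence of groups. All 3 U-2OS arrays lay above all 3 KHOS arrays, by a mean log2 difference of 0.37 ± 0.09 (SD, n = 3 transfections). The dimmer probe set overlapped between the lines, with 4.87, 5.48 and 4.84 for KHOS against 5.30, 5.15 and 5.83 for U-2OS. EPHB4 and EFNB2 thus stood in opposite directions between the lines by their brighter probe sets, with EPHB4 slightly higher in U-2OS.

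EPHA3, EPHA5, EPHA7, EPHB3 and EFNB1 gave no signal above background on any array. Their 13 probe sets lay between 2.09 and 3.17 on the log2 scale. No probe set of these genes ranged over more than 0.23 across the 6 arrays. EPHA3, EPHA5 and EPHA7 are receptors best known from the nervous system, EPHB3 is a receptor of the intestinal epithelium, and EFNB1 is a ligand with a part in bone and skull growth. Neither line nor transfection brought any of them near the signal limit.

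The lines were compared with limma over all 6 arrays, with transfection as a block, so that the error is the spread of the line difference over 3 transfections and not over separate cultures. Of the 8878 genes, 71.7% passed at an adjusted p of 0.05, 33.3% higher and 38.3% lower in U-2OS, so most genes passed. EPHA2, above the limit on all arrays, was lower in U-2OS by a log2 difference of -1.56 (SE 0.11, adjusted p = 2.96e-04, limma). EFNB2 was kept through its KHOS arrays, where it is high, and is therefore given from a fit to all 19775 genes without the filter, of which 33.8% passed. There it was lower in U-2OS by -6.42 (SE 0.07, adjusted p = 4.84e-04, limma). EPHA4 had -5.17 ± 0.80 (SD, n = 3 transfections) and is given without a test, since its level in KHOS with CDK11 siRNA chose it. The EPHA2 difference is a 2.95-fold higher signal in KHOS. For EFNB2 and EPHA4 the U-2OS levels are only a bound, and with the signal limit in their place KHOS was at least 5.23-fold higher for EFNB2 (mean levels 9.03 and 2.61) and at least 2.65-fold higher for EPHA4 (mean levels 8.05 and 2.88). Markers of other cell types moved with the line too. The mesenchyme marker THY1 was at 2.16 to 3.04 in KHOS and above the limit in U-2OS, at 7.82 to 8.28. VIM, CDH2 and FN1 went the other way, with mean log2 differences of -0.80, -1.19 and -0.32 between U-2OS and KHOS. The signals of the 4 mesenchyme markers were also summed, and VIM made up most of the sum. On the log2 scale the sum ran from 15.45 to 15.56 in KHOS and from 14.61 to 14.82 in U-2OS. The epithelial marker EPCAM was above the limit in KHOS only. On the log2 scale, the summed signal of the 6 epithelial markers ran from 8.91 to 9.09 for KHOS and from 6.12 to 6.83 for U-2OS. CDH1, KRT5, KRT14, KRT19 and CLDN4 were below the limit in both lines. The part of these markers, and of RUNX2, in the line differences was not tested.

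**Figure D3:**
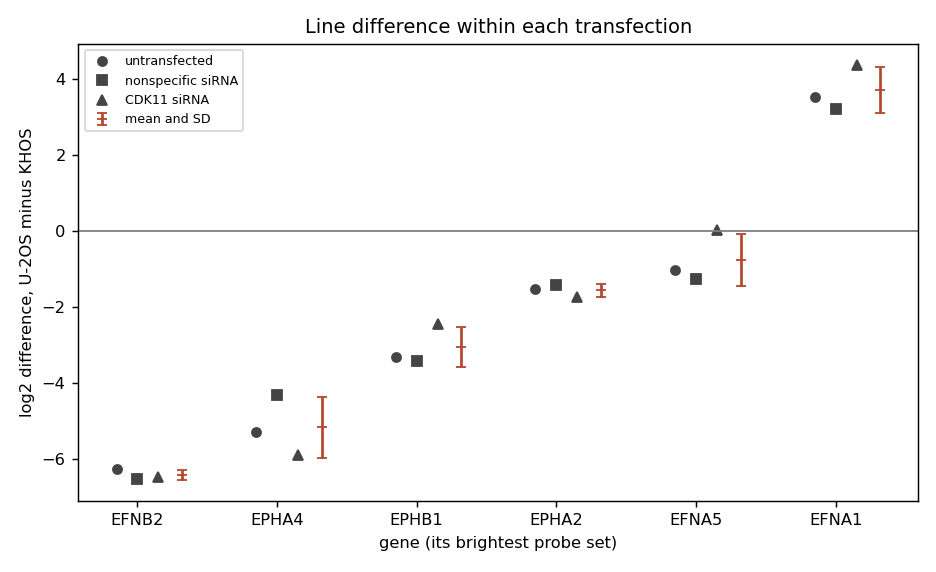
Log2 difference of U-2OS and KHOS within each transfection for the 6 genes of the family with a probe set above the signal limit, with 1 grey point per transfection and the mean with its SD over 3 transfections in red. EFNB2 lies near -6.42 in all 3, EPHA4 spreads from -5.89 to -4.31, and EFNA1 is the only gene with all points above 0.

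The EPHA4 line difference spread more over the transfections than that of EFNB2 or EPHA2. It was -5.30 untransfected, -4.31 with nonspecific siRNA and -5.89 after CDK11 siRNA. For EFNB2 the values were -6.27, -6.52 and -6.47, and for EPHA2 they were -1.52, -1.42 and -1.75. The EPHA4 level in KHOS had an SD of 1.08 over the 3 transfections, against 0.34 in U-2OS. EPHA4 was chosen by a large difference between its CDK11 and nonspecific siRNA arrays in KHOS. A wide spread follows from that choice, so nothing is read from it.

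With cell line as a block and the lines as replicates of a transfection, limma passed neither EPHA2 nor EFNB2 between CDK11 and nonspecific siRNA, where 0.0% of the 8878 genes passed. An unadjusted p under 0.05 was reached by 1205 genes. Between nonspecific siRNA and untransfected cells neither of them and 0.0% of genes passed, with 751 genes at an unadjusted p under 0.05.

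Of the 12 family genes that are no members, 3 had a probe set above the limit, and they were EFNA5, EFNA1 and EPHB1. EFNA5 encodes ephrin-A5, a ligand of EphA4, and in KHOS it went the opposite way to EPHA4. Its brightest probe set had 7.64 untransfected, 7.55 with nonspecific siRNA and 6.14 after CDK11 siRNA in KHOS, against 6.61, 6.28 and 6.16 in U-2OS. The KHOS CDK11 siRNA array fell to the level of the U-2OS arrays. Against nonspecific siRNA, CDK11 siRNA in KHOS gave -1.41 on the log2 scale, at -3.15 SD and thus called lower, where 1.09% of genes were. EFNA5 passed the limit on the untransfected and nonspecific siRNA arrays of KHOS alone, so nothing is read from the call. In U-2OS the log2 difference was -0.12. A dimmer EFNA5 probe set, below the limit, had 5.94, 5.54 and 4.28 for KHOS against 4.39, 4.39 and 4.23 for U-2OS. Another dimmer one, 233814_at, had 5.05, 4.37 and 4.19 for KHOS, so that most of its fall came with nonspecific siRNA. By its brightest probe set, but not by these dimmer ones, EFNA5 had nearly the same level with nonspecific siRNA as in untransfected KHOS cells.

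EFNA1, which encodes ephrin-A1, a ligand of EphA2, was near background in KHOS with 2.46, 2.62 and 2.45. In U-2OS it had 5.98 untransfected, 5.82 with nonspecific siRNA and 6.82 after CDK11 siRNA, the last being the only array above the limit. Kept through that array, it is given from the fit without the filter, where it was higher in U-2OS by 3.69 (SE 0.27, adjusted p = 0.00459, limma). The size is uncertain, since KHOS was near background and the U-2OS mean of 6.20 was below the limit, so that no bound on the fold can be given. EPHB1, a receptor of the B class, had 7.84, 7.69 and 7.58 for KHOS against 4.52, 4.27 and 5.13 for U-2OS. It was above the limit in KHOS only, and in the fit without the filter it was lower in U-2OS by -3.06 (SE 0.24, adjusted p = 0.00507, limma). Against the signal limit KHOS was at least 2.09-fold higher. These EPHB1 values are of its brightest probe set, and its others stayed between 2.08 and 2.42 on all arrays. With CDK11 siRNA against nonspecific siRNA in U-2OS, EFNA1 had 0.99 (2.66 SD) and EPHB1 0.85 (2.27 SD), neither of them called.

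The family genes below the limit that follow were picked after their values were seen. EFNA4 had 3.91, 3.78 and 4.06 for KHOS against 6.05, 6.20 and 6.52 for U-2OS. The fit without the filter passed 16.4% of genes as higher and 17.4% as lower in U-2OS. In that fit EFNA4 was higher in U-2OS by 2.34 (SE 0.09, adjusted p = 0.00149), EFNA2 by 1.27 (SE 0.23, adjusted p = 0.0301) and EPHB4 by 0.37 (SE 0.05, adjusted p = 0.0178). EFNA3, with 1.13 (SE 0.26), missed the threshold at an adjusted p of 0.0571 in limma, and EFNA5, with -0.77 (SE 0.31), had 0.192. Of the ephrin-A ligands, EFNA1, EFNA2 and EFNA4 were thus higher in U-2OS by this fit. For EFNA2 this rests on its brightest probe set, with mean levels of 2.78 in KHOS, near background, and 4.05 in U-2OS. Its other probe sets stayed between 2.40 and 2.53 on all arrays, so the EFNA2 difference is uncertain. EPHA10 also passed, by 0.25, at levels near background. The remaining genes of the family, EPHA1, EPHA6, EPHA8, EPHB6 and EFNB3, did not pass.

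**Figure D4:**
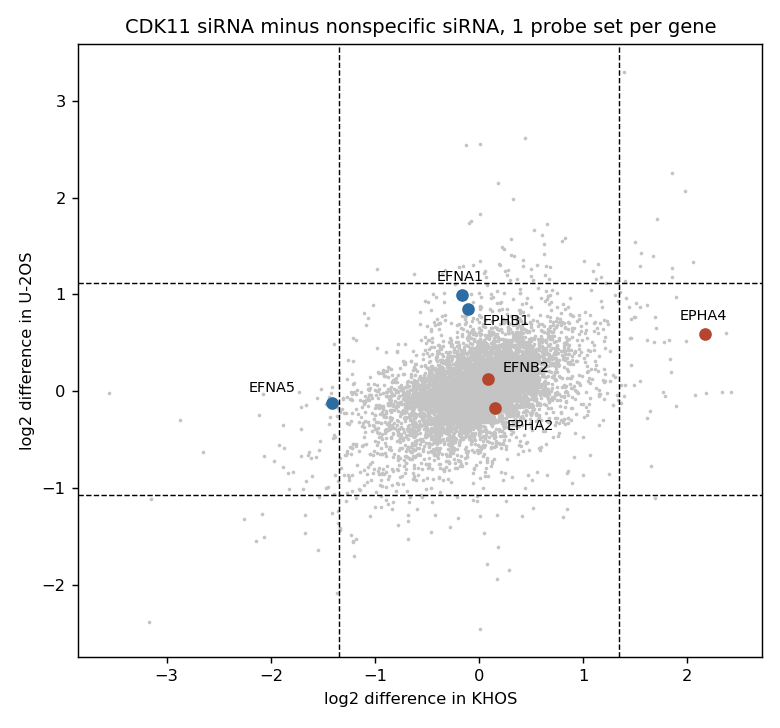
CDK11 siRNA minus nonspecific siRNA on the log2 scale, with KHOS on the x axis against U-2OS on the y axis, 1 grey point per gene, members in red, other family genes in blue and the 3 SD bounds as dashed lines. EPHA4 (2.17 in KHOS) and EFNA5 (-1.41 in KHOS) lie beyond the bounds in KHOS on opposite sides, and no gene of the family lies beyond them in U-2OS.

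Proteins that carry or shape Eph signals were described from a list of 43 genes, of which 28 were kept. In KHOS, 1 was called between CDK11 and nonspecific siRNA, against 1.95% of all genes. It was VAV3, a signalling protein that is recruited by Eph receptors. VAV3 had 5.11, 5.19 and 6.69 for KHOS against 3.60, 3.12 and 4.03 for U-2OS, so that it was above the limit on the KHOS CDK11 siRNA array alone. It was kept through the same array that gave the call, so nothing is read from the call. The log2 difference was 1.505 in KHOS (3.35 SD) and 0.91 in U-2OS (2.43 SD). The median difference of the 28 was 0.20 in KHOS and 0.05 in U-2OS, beside 0.00239 and 0.00870 for all genes. SDC2, a syndecan at the cell surface, was called for nonspecific siRNA against untransfected in U-2OS, by -1.29, which is 1 of 28 partners beside 2.51% of all genes. No partner was called in that comparison in KHOS, where 2.06% of all genes were.

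Between the lines, 15 of the 28 partners passed, 10 higher and 5 lower in U-2OS, beside 71.7% of all genes. Of the 28, 26 were above the signal limit in both lines, and VAV3 and CHN1 were above it in KHOS only. Nothing is therefore read from the count over the 28. In the fit without the filter, 10 of the 26 were higher in U-2OS, 4 were lower and 12 did not pass. Of all 19775 genes 33.8% passed there, a share that includes genes below the limit. In the fit with the filter, TIAM1 had 2.07 (SE 0.17, adjusted p = 4.86e-04, limma) and NCK2 had 1.79 (SE 0.13, adjusted p = 3.42e-04, limma). In the fit without the filter, CHN1 had -2.04 (SE 0.14, adjusted p = 0.00395, limma) and was at least 1.93-fold higher in KHOS against the limit. VAV3 had -2.08 there (SE 0.26, adjusted p = 0.0136, limma), with no bound on the fold, since its KHOS mean of 5.66 was below the limit. TIAM1 is an exchange factor for Rac, CHN1 encodes a chimaerin that acts below EphA4 in axon guidance, and NCK2 is an adaptor of ephrin-B signals.

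The genes most like EPHA4 over the 6 arrays, by Pearson correlation among 4889 genes that ranged over at least 1 log2 unit, were FBN1 (0.999), MYO10 (0.998), MANSC1 (0.996), ARPC4 (0.996) and PLTP (0.996). The arrays fall into 2 lines, so the measure mostly reads the line difference, and 1084 genes had a correlation above 0.95. FBN1, which encodes the matrix protein fibrillin-1, had 8.08, 7.64 and 8.84 for KHOS against 4.93, 4.86 and 5.09 for U-2OS. It had the same sequence of groups in KHOS as EPHA4, lowest with nonspecific siRNA and highest with CDK11 siRNA, but a smaller difference between those arrays, at 1.20. FBN1 was picked by its correlation with EPHA4 over these same arrays, so nothing is read from the shared sequence. MYO10, an unconventional myosin of filopodia, had 11.60, 11.33 and 11.87 in KHOS. Of the family, EPHA2 stood at place 456, EFNB2 at 535 and EPHB1 at 812 of the 4889.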

How the data were processed

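Total RNA of KHOS and U-2OS cells was hybridised to Affymetrix U133 Plus 2.0 arrays, 1 array for each of 6 groups. The authors deposited log2 signals of all 54675 probe sets, computed by gcrma (background adjustment, quantile normalization, summary per probe set), which gives weak probe sets nearly constant values. With 1 array per group, precision is limited by their number. Gene names came from the platform annotation, updated by gene ID through RefSeq (GRCh38.p14). Of the probe sets, 41097 had 1 symbol, 1801 several and 11777 none, and the first alone were used, apart from those of CDK11. Probe sets with a maximum above a signal of 100 were kept (16397, 8878 genes), without the present and absent calls of the study. Log2 differences were scaled by their mean and SD within each line, and limma 3.58.1 (R 4.3.3) was fitted to the brightest probe set of each gene with Benjamini-Hochberg adjustment, two-sided, with 2 residual degrees of freedom. Between the lines, genes above the limit in 1 line only were read from a fit to all genes without the filter. Both rules were tested on simulated data. Genes were named by a rule covering the members, the rest of the family, and the largest changes among signalling partners and other receptor tyrosine kinases. The members and lists were chosen with earlier results of these data known. Alternatives covered the filter, the scale and threshold, the choice of probe sets, the variance prior, the block, the arrays and centring. Python 3.11.15 with pandas 2.3.3, numpy 2.4.6 and matplotlib 3.10.9 was used.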

Additional observations from a re-analysis of the deposited data

Results flagged for a closer look

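The sign of a transfection difference was opposite in KHOS and U-2OS for 4 results of the members, with 1 array per group, so that these differences between the lines were not tested. For nonspecific siRNA against untransfected, EPHA4 had -0.99 in KHOS and 0.00071 in U-2OS, a gap of -0.99, and EFNB2 had 0.04 and -0.20, a gap of 0.25. For CDK11 siRNA against nonspecific siRNA, EPHA2 had 0.16 and -0.17, a gap of 0.33. For CDK11 siRNA against untransfected, EFNB2 had 0.13 and -0.07, a gap of 0.20. Opposite signs were common, at 42.9%, 35.7% and 35.6% of the 8878 genes in these 3 comparisons, and EPHA4 and EFNB2 were near background in U-2OS.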

How the results depend on the processing

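The number of members called in KHOS changed with the settings in 2 comparisons. For nonspecific siRNA against untransfected it rose from 0 of 3 to 2 of 9 without the filter on low values. These were EPHA4, lower, and EFNB2, higher by its dimmer probe set. It rose to 1 of 3 with a median and MAD scale and to 1 of 3 at a threshold of 2 SD, EPHA4 in each case. In that comparison these settings called 899 of 19775, 528 of 8878 and 585 of 8878 genes, beside 183 of 8878 in the main setting. For CDK11 siRNA against untransfected the member count fell from 1 to 0 when each gene was read by its brightest probe set alone. EPHA4 had been called by its dimmer one. That setting called 138 of 8878 genes, beside 198 in the main setting. EPHA4 moved from 2.17 to 2.89 against nonspecific siRNA and from 1.18 to 1.88 against untransfected when its kept probe sets were averaged. Over the 6 comparisons, 173 to 257 of 8878 genes were called, and 899 to 1051 of 19775 without the filter. Of the 8878, 515 to 729 were called with the MAD scale, 585 to 732 at 2 SD and 117 to 138 with the brightest probe set. In limma, a variance prior that follows the level passed 119 genes for CDK11 against nonspecific siRNA and 5 for nonspecific siRNA against untransfected, none of them members, beside 0 each. Leaving out the 2 arrays of each transfection in turn, the line difference ran from -6.50 to -6.37 for EFNB2, from -1.63 to -1.47 for EPHA2 and from -5.60 to -4.81 for EPHA4. Without the filter, where 33.8% of genes passed, EPHB4 passed between the lines beside EPHA2 and EFNB2, with EPHA4 not tested. Without transfection as a block, EPHA2 had an adjusted p of 5.80e-05 in limma. EFNB2 had a line difference of -6.42 in that fit, given without a p because the filter kept it through its KHOS arrays. Centring each array on the median of its kept probe sets, chosen after seeing the data, moved the line difference of EPHA2 from -1.56 to -1.41, since the median of the kept probe sets was 8.71 to 8.72 in KHOS and 8.54 to 8.58 in U-2OS. The lines were paired by transfection only, through the block. The labels give no replicate numbers by which cultures could be paired.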

Other observations

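Of 40 other receptor tyrosine kinases, 11 were kept, and none was called with CDK11 siRNA against nonspecific siRNA in either line. Of all genes, 1.95% were called in KHOS and 2.89% in U-2OS, so that little can be read from a list this short. Their log2 differences ran from -0.43 to 0.47 for KHOS and from -0.39 to 0.72 for U-2OS. Between the lines 7 of the 11 passed in limma, 5 lower and 2 higher in U-2OS, beside 71.7% of all genes. PDGFRA and DDR2 were kept through 1 line each, so nothing is read from this count. The 8 kinases above the signal limit in both lines were counted in the fit without the filter. There 3 were lower in U-2OS, 0 were higher and 5 did not pass. Of all 19775 genes 33.8% passed there, a share that includes genes below the limit. PDGFRA, a receptor of mesenchymal cells, had 9.88, 9.14 and 9.14 for KHOS against 4.96, 5.03 and 4.64 for U-2OS, given as untransfected, nonspecific siRNA and CDK11 siRNA. It was above the signal limit in KHOS only, and against that limit KHOS was at least 6.68-fold higher. In the fit without the filter it had -4.51 (SE 0.19, adjusted p = 0.00172, limma). EGFR, the receptor of epidermal growth factor, was lower in U-2OS by -2.99 (SE 0.17, adjusted p = 1.53e-04, limma), and MET, the receptor of hepatocyte growth factor, by -1.12 (SE 0.12, adjusted p = 0.00120, limma). DDR2, a collagen receptor, was above the limit in U-2OS only, at least 1.51-fold higher against it, and had 1.61 in the fit without the filter (SE 0.09, adjusted p = 0.00256, limma).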
